A study of Mus musculus with 2 samples.

Results

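Neurog3-positive endocrine progenitors of the E18.5 mouse pancreas were the cells of 2 single-cell RNA libraries that held Neurog3 mRNA and little hormone mRNA. They were chosen by measured values, as barcodes with at least 500 detected genes, at most 10% mitochondrial counts and at least 2 Neurog3 UMIs (unique molecular identifiers, each counting 1 captured mRNA molecule), in which Ins1 plus Ins2, Gcg, Sst and Ghrl each took less than 1% of the UMIs. Of 5890 barcodes that passed the first and second filters, 145 met the rule. They numbered 57 in control and 88 in the library labelled knockout.

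The study dissociated whole pancreas of C57BL/6 embryos with trypsin, loaded unsorted cells on a droplet instrument with a 3' kit and compared a control with a Dpy30∆P pancreas, named as a knockout. Dpy30 is a shared subunit of the Trithorax group (TrxG) complexes that methylate lysine 4 of histone H3. The genotype of the control, the line and cell type that drove the deletion, the number of embryos per library and the deleted exons are, as far as the labels and headers go, not given in the sources used here. Control cells were resuspended in 500 uL and knockout cells in 250 uL, and 17.4 uL of each was loaded. This difference and the genotype cannot be told apart. Each group was 1 library, so no test between genotypes was possible, and every 95% interval given covers counting error only. A ratio is knockout over control throughout.

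Neurog3 is a basic helix-loop-helix transcription factor that is switched on for a short time in single cells of the pancreatic trunk epithelium. It directs them out of the duct and into the endocrine lineage through factors such as Neurod1, Nkx2-2, Insm1 and Pax4. The cells leave the cell cycle, inhibit Notch signalling among themselves and detach from the epithelium before a hormone gene comes on.

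Factors of this class bind E-boxes, the 6 bases CANNTG, in the genes they control. The 250 bases before the transcription start of 4 genes follow, from RefSeq on GRCm38.p6, with every CANNTG in capitals. They are Neurog3 itself, the Neurog3 target genes Neurod1 and Nkx2-2, whose levels are compared here, and Gadd45a, a marker that was lower in the knockout progenitors.
Neurog3: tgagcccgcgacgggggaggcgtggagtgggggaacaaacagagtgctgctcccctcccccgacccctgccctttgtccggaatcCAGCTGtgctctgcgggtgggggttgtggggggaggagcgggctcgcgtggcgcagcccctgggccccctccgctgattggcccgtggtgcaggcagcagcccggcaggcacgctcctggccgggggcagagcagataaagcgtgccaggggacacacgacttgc
Neurod1: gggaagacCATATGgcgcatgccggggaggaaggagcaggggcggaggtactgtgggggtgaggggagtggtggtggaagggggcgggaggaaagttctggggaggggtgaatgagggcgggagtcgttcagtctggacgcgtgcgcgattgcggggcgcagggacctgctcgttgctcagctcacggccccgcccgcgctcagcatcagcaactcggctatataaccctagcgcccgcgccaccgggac
Nkx2-2: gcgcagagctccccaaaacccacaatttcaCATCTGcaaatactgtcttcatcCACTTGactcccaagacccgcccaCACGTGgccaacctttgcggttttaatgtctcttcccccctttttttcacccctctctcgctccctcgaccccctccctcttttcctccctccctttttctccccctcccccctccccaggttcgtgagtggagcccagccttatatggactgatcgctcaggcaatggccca
Gadd45a: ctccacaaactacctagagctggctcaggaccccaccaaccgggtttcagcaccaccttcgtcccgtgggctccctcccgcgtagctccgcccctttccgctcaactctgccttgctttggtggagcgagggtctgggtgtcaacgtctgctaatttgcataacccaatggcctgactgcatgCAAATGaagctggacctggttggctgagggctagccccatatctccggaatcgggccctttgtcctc

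The Neurog3 stretch lies at chr10:62132840-62133089 on the plus strand and holds 1 match, CAGCTG. The other 3 lie on the minus strand, at chr2:79456637-79456886 for Neurod1, chr2:147186403-147186652 for Nkx2-2 and chr6:67037408-67037657 for Gadd45a. Neurod1 holds 1 match, CATATG. Nkx2-2 holds 3 matches, the first of them CATCTG. Gadd45a holds 1 match, CAAATG. The pattern CANNTG, searched on both strands and overlapping each narrower form named here, was present in 66.2% of all 32851 stretches of this length, and CATATG in 3.46%. The form CAGATG was in 14.4%, counting CATCTG, its reading on the other strand. The form CAGCTG was in 13%. Of the 30 endocrine commitment genes listed for this work, 23 had such a stretch, and 18 of the 23 held CANNTG in at least 1, beside 69.3% of all gene symbols. A match of letters is a description of the sequence and says nothing of binding in these cells.

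Dpy30 (ENSMUSG00000024067, chr17:74299474-74323944, minus strand, GENCODE M21 on GRCm38) was the targeted gene. It had 88 UMIs in control and 136 in knockout progenitors, or 139 and 132 CPM (counts scaled to a total of 1000000 UMIs summed over the cells), a ratio of 0.95 (0.72 to 1.26). Its level did not differ beyond counting error. The 3' tags do not say whether a deleted part was read, so this checks neither the deletion nor the label.

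The 57 control progenitors were 2.16% (1.64% to 2.80%, exact binomial interval) of the kept control barcodes. The 88 knockout progenitors were 2.70% (2.17% to 3.32%), and the ratio of the shares was 1.25 (0.898 to 1.73). Of epithelial barcodes the shares were 5.74% and 6.32%, a ratio of 1.10 (0.797 to 1.52). Neither share differed beyond counting error. The epithelial denominator held 993 control and 1392 knockout barcodes. Acinar barcodes outside the rule made up 109 and 765 of these, so it was not an even base for the comparison. Of the endocrine family the progenitors took 14.8% (11.4% to 18.7%) in control and 33.6% (27.9% to 39.7%) in knockout, a ratio of 2.27 (1.70 to 3.05). That denominator held 386 control and 262 knockout barcodes, so it differed between the libraries as well. Counting only cells with 20 or more Neurog3 UMIs, the ratio of shares (knockout over control) was 0.69 of kept barcodes. It was 0.61 of epithelial barcodes and 1.35 of the endocrine family. The kept and epithelial denominators held the same unequal numbers of acinar barcodes, and shares without them were not computed.

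The control progenitors had a median of 6866 UMIs and 2433 genes, and the knockout progenitors 8680.5 UMIs and 2868 genes. The summed depth was 634982 and 1029720 UMIs. Scrublet marked none of them as a doublet, and 46 of all kept barcodes (0.781%). The libraries shared 27 barcode sequences, of which 0 were progenitors. One control progenitor stood apart with 53223 UMIs, 8.38% of the control sum. Xist was at 0 UMIs in control and 2613 in knockout progenitors, and the Y-linked Ddx3y at 45 and 0, so the sex of the embryos and the genotype cannot be told apart.

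The label was checked against the marker genes Pax4, Gadd45a, Amotl2 and Hes6, since Neurog3 itself had chosen the cells. Clustering of all kept barcodes gave 24 clusters, and 1 of them had all 4, and Neurog3, among its leading 50 genes. That progenitor cluster held 45 of the 57 control and 59 of the 88 knockout progenitors. The 12 control and 29 knockout progenitors outside it had median depths of 12490 and 16154 UMIs. They gave 213638 of the 634982 control UMIs and 489650 of the 1029720 knockout UMIs. Levels summed over all progenitors weigh cells by depth, so these cells had a larger part in the knockout sums. Levels within the cluster are given below. A ductal cluster held 7 and 9, a cycling cluster with ductal markers 3 and 10, and other endocrine clusters 2 and 5. Another 4 knockout progenitors lay in acinar clusters and 1 in a further cluster, against 0 control progenitors in either. Of the 58 control and 71 knockout barcodes of the progenitor cluster, 13 and 12 did not meet the rule, most of them with fewer than 2 Neurog3 UMIs (12 and 9).

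Neurog3 (ENSMUSG00000044312, chr10:62133090-62134763, plus strand) chose the cells, so its level is only described. Control progenitors held 2 to 84 Neurog3 UMIs with a median of 22. Knockout progenitors held 2 to 74 with a median of 13.5. Per 10000 UMIs of the cell the medians were 28.0 and 13.1. The ranges overlapped, but cells with 20 or more Neurog3 UMIs were 35 of 57 (61.4%) in control and 30 of 88 (34.1%) in knockout. Most of the cells with 20 or more, 34 and 28, lay in the progenitor cluster.

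**Figure D1:**
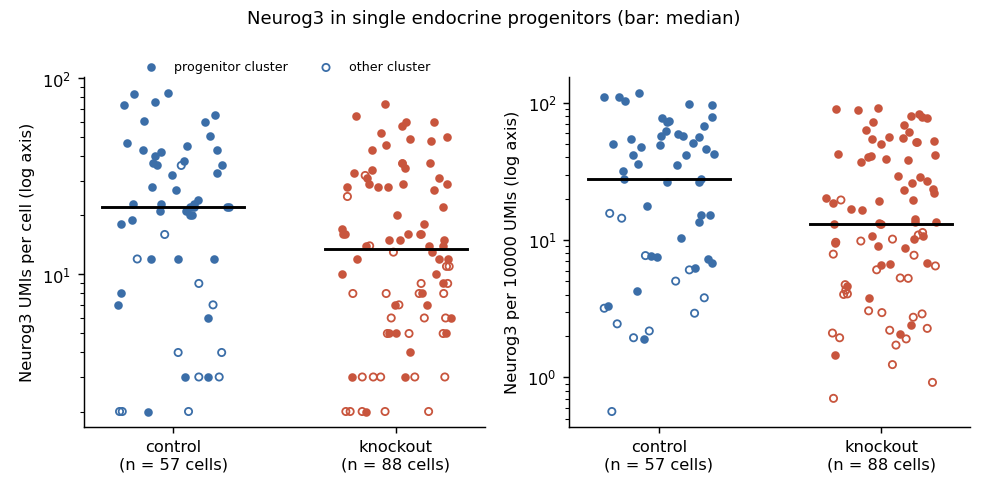
Neurog3 UMIs in each progenitor (left) and per 10000 UMIs of the cell (right), both on log axes, with 1 point per cell, filled for the progenitor cluster and open for other clusters. Black bars are medians, 22 and 13.5 UMIs on the left and 28.0 and 13.1 on the right, and the knockout cells reach as far down and nearly as far up as the control cells.

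Just outside the rule were 21 control and 25 knockout barcodes with 1 Neurog3 UMI and low hormone levels. Just inside were 4 and 6 with 2 Neurog3 UMIs, and 4 and 7 with 3. Another 8 control and 9 knockout barcodes had 2 or more Neurog3 UMIs but too much hormone mRNA. Free RNA gave little Neurog3 elsewhere. Of mesenchymal barcodes, which should lack the gene, 0 of 559 control and 2 of 691 knockout barcodes (0.289%) held a Neurog3 UMI, at median depths of 5457 and 5285 UMIs. Of ductal barcodes outside the rule 1.91% and 3.21% held one. The 7 control and 9 knockout progenitors of the ductal cluster are left out of these shares, so the rule itself lowers them.

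Beside all other kept barcodes, the progenitors were led by Pax4, which directs endocrine cells to the beta and delta fates. Pax4 stood at 148 CPM against 0.422 CPM in the other control barcodes, and at 45.6 against 0.0728 CPM in the knockout library. Neurod2, a neuronal relative of Neurod1, stood at 47.2 against 0.234 CPM in control and 64.1 against 0.727 CPM in knockout. Of hormone-low endocrine barcodes outside the rule, 2.13% in control and 10.5% in knockout had a Neurod2 UMI, and in the knockout library the gene stood at 24.4 CPM in them.

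The next genes by the same rule were Grin3a, an NMDA receptor subunit, Cck, the peptide hormone cholecystokinin, the long noncoding RNA Miat, Gadd45a, Btbd17, the Myc family gene Mycl, the neuronal splicing factor Rbfox3 and the cell cycle inhibitor Cdkn1a. Insrr, an insulin receptor relative, the neuronal tubulin Tubb3, Crybb1, Pla2g2f and the phosphodiesterase Pde1c completed the 15. Gadd45a was 22.8-fold and 17.1-fold higher than in other barcodes, and Cdkn1a 8.89-fold and 8.44-fold. Of 27 measured commitment genes, 24 were at least 1.5-fold higher than in other barcodes in both libraries, beside 16.7% of the 7311 genes with at least 20 UMIs in the progenitors.

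In the authors' deposited table of cluster marker genes, 1 cluster lists Neurog3. It places Neurog3 first, Krt7 in rank 2, Hes6 in rank 10, Neurod1 in rank 12, Nkx2-2 in rank 26 and Pax4 in rank 32. It holds 11 of the 15 leading genes above, but not Gadd45a, Mycl, Rbfox3 or Insrr. Of its 159 genes, 92 other than the genes of the rule had at least 50 UMIs in the progenitors, and 79 of these were at least 1.5-fold higher than in other barcodes in both libraries, beside 18.3% of the 4142 genes with that many UMIs.

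Against the ductal cluster, the nearest epithelial neighbour, the progenitors held more transcripts of most later endocrine genes. Neurod1 stood at 266 CPM in control progenitors against 0.773 CPM in ductal barcodes, and at 216 against 0.864 CPM in knockout. Insm1, a zinc finger factor of endocrine differentiation, stood at 154 against 0.515 CPM and 124 against 0.432 CPM. The other leading genes were Isl1, Cck, Pyy, Neurod2, Vwa5b2 and Chga. Lower in the progenitors were Ankrd1 and Cyr61, targets of the Hippo effector Yap, with Cyr61 at 439 against 1707 CPM in control and 493 against 1484 CPM in knockout. Krt23, Klf6, Cxcl1, Nfkbia and Gadd45b were lower as well, as was the red cell gene Alas2. Of 26 measured later endocrine genes, 23 were at least 1.5-fold higher than in ductal barcodes in both libraries, where 10.4% of all genes were.

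Against hormone-low endocrine barcodes outside the rule, 47 in control and 57 in knockout, the progenitors held more Spp1 and G2 and M phase transcripts and fewer of most later endocrine genes. Spp1, the duct gene osteopontin, stood at 6739 against 1852 CPM in control and 3984 against 415 CPM in knockout. The mitotic genes Cdca3, Ube2c and Cenpf, and Wfdc15b, Apoe, Tff2 and the stem cell surface gene Prom1, were higher as well. Of 23 measured G2 and M phase genes 22 were at least 1.5-fold higher in both libraries, where 11.6% of all genes were. Without the 3 control and 10 knockout progenitors of the cycling cluster, 6 of the 23 were, and 1 was lower. Lower in the progenitors were Pcsk2, a prohormone convertase, at 105 against 2266 CPM in control and 94.2 against 2657 CPM in knockout, and the peptide gene Pyy. Peg10, Dbpht2, Slc38a5, the glutamate receptor gene Gria2, Sphkap and Ppy followed. Of the later endocrine list, 23 of 26 were at least 1.5-fold lower in both libraries, where 10.7% of all genes were, and 1 was higher.

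Across the 19 clusters with at least 20 barcodes in each library, the genes whose level was most like that of Neurog3 were Serpina1c, Lrrn1, Pick1, Kif12, Btbd17, Ocln, Tmc4, Foxp4, Adgrg1 and Kdf1. The Spearman correlation of Serpina1c with Neurog3 was 0.895 in control and 0.894 in knockout, and that of Kdf1 was 0.815 and 0.874. The clusters of a library share their depth and free RNA, so these values are descriptions.

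Between the genotypes, 235 of the 4142 genes with at least 50 UMIs (5.67%) were at least 1.5-fold higher in knockout progenitors and 363 (8.76%) were at least 1.5-fold lower. With acinar enzyme, hormone, haemoglobin, mitochondrial and ribosomal UMIs left out of the totals the numbers were 293 and 270. In knockout progenitors 1.02% of all UMIs came from 11 acinar markers, with 0.0269% to 19.5% per cell, against 0.0581% and 0% to 0.382% in control. Pnlip was at 0 in both, and the defining factors Rbpjl and Ptf1a were at 0 in control. Without the 4 knockout progenitors in acinar clusters, 254 of the same genes were higher and 282 lower. Over the 7311 genes with at least 20 UMIs, used for the gene lists below, 10.3% were at least 1.5-fold higher and 12.2% lower, with a median log2 ratio of −0.04.

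The endocrine commitment list was lower in the knockout progenitors. Of 30 listed genes, 27 had at least 20 UMIs. Of these 10 were at least 1.5-fold lower and 0 at least 1.5-fold higher, beside the 12.2% and 10.3% of all genes. Of the 27, 21 had a ratio below 1, and the median log2 ratio was −0.42 beside −0.04 over all genes. It was −0.24 within the progenitor cluster and −0.21 in cells of 20 or more Neurog3 UMIs. In the ductal cluster the median of the same genes was 0.10. The list was drawn up with earlier results of these cells known, so its direction is not independent evidence.

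Among its transcription factors, Pax4 (ENSMUSG00000029706, chr6:28442334-28449353, minus strand) had the lowest ratio. It had 94 UMIs in control and 47 in knockout progenitors, 148 and 45.6 CPM, a ratio of 0.31 (0.21 to 0.44). The library labelled knockout thus held less than its share of the Pax4 molecules. A Pax4 UMI was seen in 52.6% of control and 26.1% of knockout progenitors, and in 37.8% and 14.8% when each cell was thinned to 3000 UMIs, leaving out 1 shallower cell of each library. Of ductal barcodes outside the rule 0.273% and 0%, and of mesenchymal barcodes 0% and 0%, held a Pax4 UMI.

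Other factors were closer to the control. Nkx2-2 stood at 277 and 208 CPM (ratio 0.75, 0.61 to 0.92), and Sox4, a partner of Neurog3, at 709 and 537 CPM (0.76, 0.67 to 0.86). Neurod1 stood at 266 and 216 CPM (0.81, 0.66 to 1.00) and Insm1 at 154 and 124 CPM (0.81, 0.61 to 1.06). The 4 values lay lower with smaller differences than that of Pax4, and that of Insm1 was within counting error. Insm1 stood at 209 and 217 CPM within the progenitor cluster and at 245 and 249 CPM in cells of 20 or more Neurog3 UMIs. Tox3, a high mobility group protein gene, stood at 205 and 144 CPM (0.70, 0.55 to 0.90) and Cbfa2t3, a corepressor, at 228 and 177 CPM (0.77, 0.62 to 0.97). Rfx6, which acts just after Neurog3, stood at 31.5 and 35.9 CPM (1.14, 0.65 to 2.07), Neurod2 at 47.2 and 64.1 CPM (1.36, 0.87 to 2.16), and the corepressor gene Runx1t1 at 139 and 162 CPM (1.17, 0.90 to 1.53). For none of these 3 was the difference beyond counting error.

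Among the Notch modulators, Hes6 (ENSMUSG00000067071, chr1:91411483-91414038, minus strand), which counters Hes1, had 163 and 147 UMIs, 257 and 143 CPM, a ratio of 0.56 (0.44 to 0.70). Mfng, a fringe enzyme that modifies Notch, had 39 and 22 UMIs, 61.4 and 21.4 CPM, a ratio of 0.35 (0.20 to 0.60). The Notch target Hes1 stood at 814 and 904 CPM (1.11, 1.00 to 1.24). In cells of 20 or more Neurog3 UMIs it stood at 526 and 946 CPM (1.80, 1.48 to 2.20), and its ratios in the middle and lowest ranges were 0.81 and 0.82. Dlk1, a membrane protein related to Notch ligands, stood at 118 and 220 CPM (1.86, 1.43 to 2.45). In the ductal cluster the ratio of Dlk1 was 1.80. Over the 13 measured genes of the Notch list, which share Mfng and Hes6 with the commitment list, 2 were at least 1.5-fold higher and 2 lower. The shares over all genes were 10.3% and 12.2%. The median log2 ratio of the list was −0.05, near that of all genes.

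Among the growth arrest genes, Gadd45a (ENSMUSG00000036390, chr6:67035096-67037457, minus strand), a stress and cell cycle gene, had 251 and 211 UMIs, 395 and 205 CPM, a ratio of 0.52 (0.43 to 0.63). Cdkn1a, the inhibitor p21, lay the other way, with 390 and 864 UMIs, 614 and 839 CPM, a ratio of 1.37 (1.21 to 1.54). Btg2, an antiproliferative gene, was seen in every progenitor, at 1484 and 1442 CPM (0.97, 0.90 to 1.06). Gadd45g stood at 173 and 203 CPM (1.17, 0.93 to 1.49). Arrest genes thus did not share 1 direction. Of the 17 measured genes of the cell cycle inhibitor and p53 list, 2 were at least 1.5-fold higher and 1 lower. The shares over all genes were 10.3% and 12.2%, and the median log2 ratio of the list was −0.04. The gene furthest higher was Plk2, a kinase of the p53 response, at 48.8 and 106 CPM (2.17, 1.44 to 3.34).

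Other members of the commitment list were cytoskeletal, secreted or signalling genes. Krt7, a keratin, stood at 572 and 300.1 CPM (0.52, 0.45 to 0.61), Mdk, the growth factor midkine, at 672 and 374 CPM (0.56, 0.48 to 0.64), and Cck at 142 and 79.6 CPM (0.56, 0.41 to 0.77). Ppp1r14a, an inhibitor of myosin phosphatase, stood at 70.9 and 26.2 CPM (0.37, 0.22 to 0.61) and Cotl1, an actin-binding gene, at 175 and 101 CPM (0.58, 0.44 to 0.76). All 5 were at least 1.5-fold lower. In cells of 20 or more Neurog3 UMIs, however, Cck stood at 208 and 180 CPM (0.86, 0.59 to 1.26), and 19.3% and 20.5% of all progenitors had a Cck UMI. Amotl2 (ENSMUSG00000032531, chr9:102716672-102733418, plus strand), an angiomotin of cell junctions and a marker of this cell state, had 108 and 171 UMIs, 170 and 166 CPM, a ratio of 0.98 (0.76 to 1.25). Its difference was within counting error, in contrast to the markers Pax4, Gadd45a and Hes6.

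**Figure D2:**
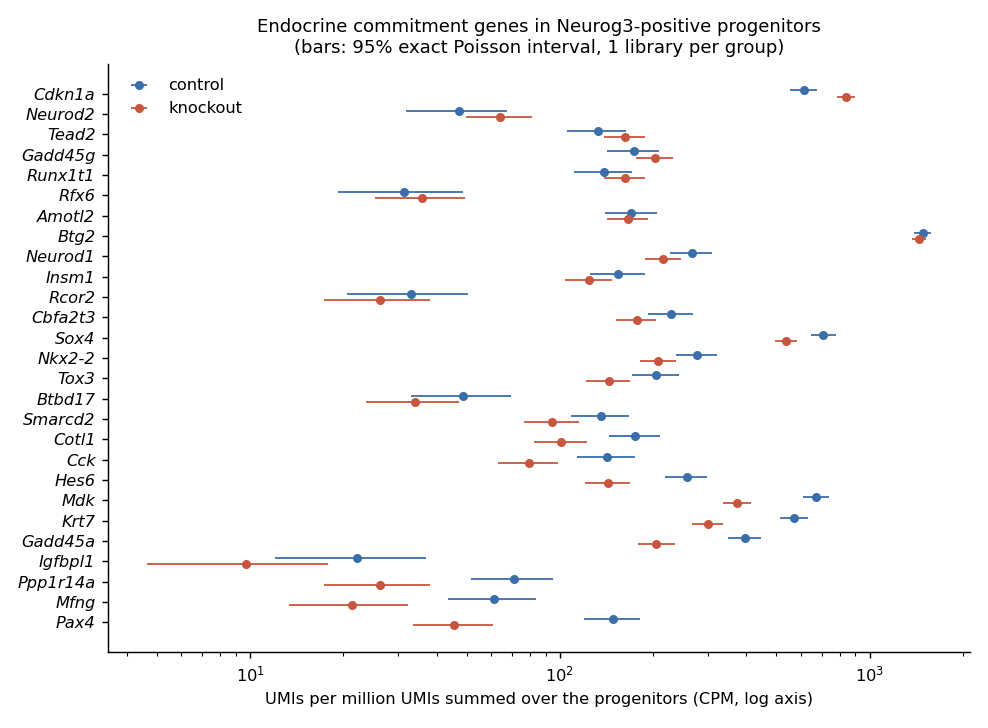
Levels of the 27 measured commitment genes in control (blue) and knockout (red) progenitors, in CPM on a log axis, with 95% exact Poisson intervals and genes ordered by their ratio. The intervals of Pax4, Mfng, Gadd45a, Krt7, Mdk and Hes6 do not overlap and the knockout value is the lower, whereas for Cdkn1a the knockout value is the higher.

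Since knockout progenitors held fewer cells of high Neurog3, the genes were also compared within 3 ranges of Neurog3 UMIs, an alternative chosen after the data were seen. The range of 20 or more held 35 control and 30 knockout cells with 4560 and 4061 CPM of Neurog3. In it Pax4 had 85 and 28 UMIs, 281 and 96.7 CPM, a ratio of 0.34 (0.22 to 0.53). Mfng stood at 109 and 51.8 CPM (0.47, 0.24 to 0.90), Krt7 at 767 and 442 CPM (0.58, 0.46 to 0.72), Mdk at 989 and 566 CPM (0.57, 0.47 to 0.70) and Hes6 at 397 and 252 CPM (0.64, 0.47 to 0.86). Each of these 5 was lower in knockout cells with as many Neurog3 UMIs.

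Gadd45a differed less in that range than over all progenitors, at 737 and 532 CPM (0.72, 0.58 to 0.89). Neurod1 stood at 324 and 290 CPM (0.90, 0.66 to 1.21) and Nkx2-2 at 420 and 363 CPM (0.86, 0.66 to 1.13), both within counting error. Cdkn1a was higher in knockout cells of the range, at 727 and 950 CPM (1.31, 1.09 to 1.57). Over the commitment list, whose genes needed 20 UMIs, 8 of the 27 genes were at least 1.5-fold lower and 1 was higher there. Of the 4142 genes with at least 50 UMIs over all progenitors, 13.1% were lower and 13.5% higher in these fewer cells.

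In the range of 5 to 19, with 12 control and 44 knockout cells, the differences were smaller for Pax4. It had 8 and 18 UMIs (0.77, 0.32 to 2.04), and Hes6 30 and 60 (0.68, 0.43 to 1.09), both within counting error. Mdk (0.57, 0.44 to 0.74) and Krt7 (0.66, 0.49 to 0.88) were lower. In the range of 2 to 4, with 10 and 14 cells, Pax4 had 1 UMI in each library. The median depth of the middle range differed, at 15593 UMIs in control and 9109.5 in knockout, and its part in these values was not tested.

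**Figure D3:**
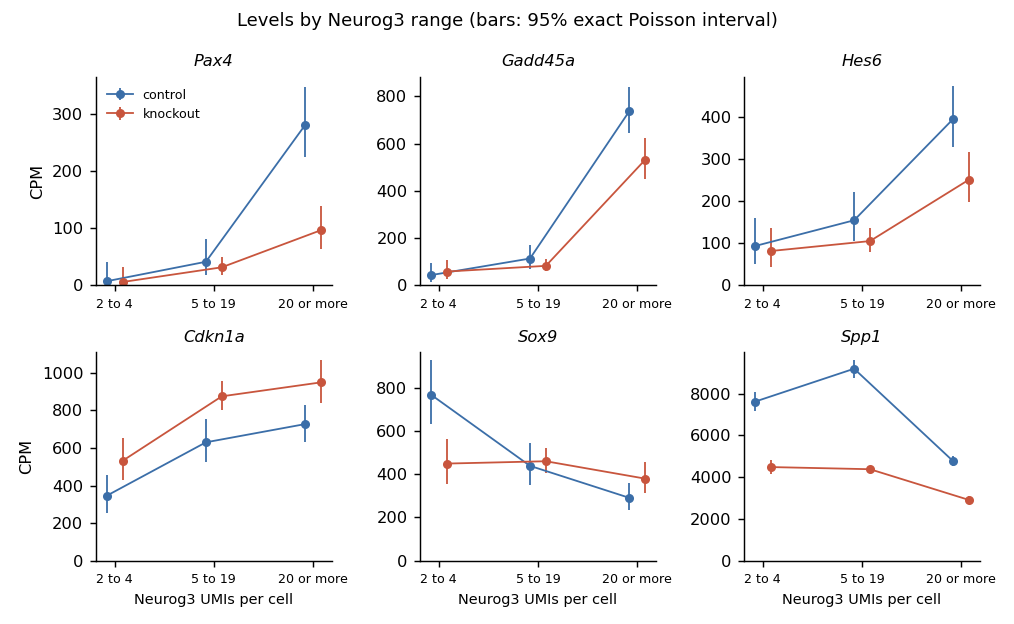
Levels of 6 genes (CPM, linear axes from 0) in progenitors with 2 to 4, 5 to 19 and 20 or more Neurog3 UMIs, control in blue and knockout in red, with 95% exact Poisson intervals. Pax4, Gadd45a and Hes6 are highest in the range of most Neurog3 in both libraries and lower in knockout there, at 281 and 96.7 CPM for Pax4, while Cdkn1a is higher in knockout in all 3 ranges.

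Within the progenitor cluster, 45 control and 59 knockout cells, Pax4 stood at 216 and 87.0 CPM (0.40, 0.28 to 0.58), Gadd45a at 586 and 330 CPM (0.56, 0.46 to 0.68) and Hes6 at 342 and 209 CPM (0.61, 0.47 to 0.79). Of the 27 commitment genes 11 were at least 1.5-fold lower and 1 higher. Of the 4142 genes with at least 50 UMIs over all progenitors, 10.4% were lower and 9.90% higher. The list genes needed only 20 UMIs, so the 2 shares are not at the same threshold. The differences in these markers were thus also seen among cells of 1 cluster, but its cells were not alike in Neurog3. Neurog3 stood at 3430 and 2692 CPM there (0.79, 0.73 to 0.84). Of its 45 control and 59 knockout cells, 34 and 28 had 20 or more Neurog3 UMIs. The part of this in the marker values was not tested. Outside that cluster, in 12 control and 29 knockout cells, Pax4 had 3 and 0 UMIs, and Gadd45a lay the other way, with 4 and 33 UMIs and a ratio of 3.6 (1.28 to 14).

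Of the 92 genes of the authors' deposited list, 48 (52.2%) were at least 1.5-fold lower and 1 (1.09%) was higher, beside the 8.76% and 5.67% of all genes, and the median log2 ratio was −0.60. Within the progenitor cluster 33 were lower and 1 was higher, and in cells of 20 or more Neurog3 UMIs 38 and 6. The authors chose these genes on the same 2 libraries, so this is no independent evidence of a direction.

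The trunk and duct list had 3 of 23 measured genes at least 1.5-fold lower and 1 higher, beside 12.2% and 10.3% of all genes. Its median log2 ratio was −0.11. Spp1 had 4279 and 4102 UMIs, 6739 and 3984 CPM, a ratio of 0.59 (0.57 to 0.62). Clu, clusterin, stood at 3433 and 2395 CPM (0.70, 0.66 to 0.74) and Cldn3, a tight junction claudin, at 397 and 280 CPM (0.70, 0.59 to 0.84). Krt8 stood at 983 and 868 CPM (0.88, 0.80 to 0.98). Spp1 was lower in the ductal cluster too, with a ratio of 0.81.

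Sox9, the trunk factor upstream of Neurog3 and named after its values were seen, stood at 441 and 436 CPM (0.99, 0.85 to 1.15). Along the Neurog3 ranges, from few to many UMIs, it stood at 770, 439 and 291 CPM in control, and in knockout at 450, 460 and 380 CPM. Its ratio was 0.58 (0.43 to 0.79) in the lowest range and 1.31 (0.98 to 1.75) in the highest. Across cells the Spearman correlation of Neurog3 per 10000 UMIs with the summed trunk list was −0.43 in 57 control cells and −0.34 in 88 knockout cells. With the summed commitment list it was 0.69 and 0.73. Neurog3 per 10000 UMIs also went with depth, at −0.53 and −0.60, so these are descriptions of cells of 1 library each.

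The list of later endocrine genes had 8 of 26 measured genes at least 1.5-fold lower and 0 higher, beside 12.2% and 10.3% of all genes. Its median log2 ratio was −0.13, and 0.38 in cells of 20 or more Neurog3 UMIs. For several genes of the list 1 control cell held most of the UMIs. Iapp, the beta cell peptide amylin, had 754 and 189 UMIs, 537 of them in 1 control cell. Pyy had 1056 and 796 with 892 in 1 control cell, and Rbp4, a retinol carrier, 266 and 112 with 210 in 1. Scg2, a secretogranin, had 20 and 3 UMIs, a ratio of 0.09 (0.018 to 0.31), with 11 in 1 control cell. Without that cell, chosen for each gene after its values were seen, Pyy had the other direction (2.92, 2.46 to 3.48) and Rbp4 was within counting error (1.20, 0.87 to 1.69). Iapp (0.53, 0.43 to 0.65) and Scg2 (0.20, 0.035 to 0.80) were still at least 1.5-fold lower. Gnas, a G protein subunit, stood at 444 and 453 CPM (1.02, 0.88 to 1.19).

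Chga, chromogranin A, was spread over more cells, with a UMI in 36.8% of control and 33.0% of knockout progenitors. It stood at 554 and 282 CPM (0.51, 0.43 to 0.60). In cells of 20 or more Neurog3 UMIs its log2 ratio was −0.04, against −0.98 over all progenitors. In the ductal cluster, which does not use the gene, it stood at only 14.4 and 2.16 CPM, a ratio of 0.15. In mesenchymal barcodes it stood at 5.76 and 0.802 CPM, a ratio of 0.14. The part of free RNA in the result was not tested.

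Of 14 measured endocrine fate factors, 5 were at least 1.5-fold lower and 1 higher, beside 12.2% and 10.3% of all genes. The median log2 ratio of the list was −0.49. Besides Pax4 the list was led by Isl1, a LIM factor of all islet cells, with 133 and 98 UMIs, 209 and 95.2 CPM (0.45, 0.35 to 0.59). Of its control UMIs, 47 came from 1 cell, and the shares of cells with a UMI were 24.6% and 22.7%. Hhex, which maintains delta cells, stood at 227 and 152 CPM (0.67, 0.53 to 0.84) and in the ductal cluster had a ratio of 0.75. Isl1 thus differed in the level of a few cells more than in the share of cells.

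Cell cycle genes were counted by phase. Of 24 measured S phase genes, 7 were at least 1.5-fold higher in knockout and 3 lower. Of 23 G2 and M phase genes 2 were higher and 7 lower. These counts stand beside 10.3% higher and 12.2% lower over all genes. The summed S phase list stood at 849 (779 to 924) CPM in control and 941 (883 to 1002) CPM in knockout progenitors. The summed G2 and M phase list stood at 1524 (1430 to 1624) and 1289 (1220 to 1360) CPM. A few cells carried that sum. The 4 cells with most held 764 of the 968 control UMIs (78.9%) and 639 of the 1327 knockout UMIs (48.2%), and the median progenitor had 2 and 2.5. The 3 control and 10 knockout progenitors of the cycling cluster held 64.4% and 75.7%, and without them the sum stood at 642 (576 to 713) and 384 (343 to 428) CPM. In the cycling cluster with ductal markers the same lists stood at 2333 and 2664 CPM and at 8171 and 5974 CPM, so the directions were the same there. Other cell types differed. The ductal cluster had 1091 and 1087 CPM for S phase and 399 and 436 CPM for G2 and M phase. Hormone-low endocrine barcodes had 735 and 597 CPM, and 313 and 407 CPM. Acinar barcodes had 692 and 569 CPM, and 938 and 774 CPM. The median log2 ratio of the S phase list was 0.12 over all progenitors but −0.36 within the progenitor cluster. That of the G2 and M phase list was −0.08, but 0.68 in cells of 20 or more Neurog3 UMIs and −0.73 outside the cycling cluster.

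Among these genes, Dut, which clears dUTP, stood at 55.1 and 96.1 CPM (1.74, 1.18 to 2.64), Mcm6, a helicase subunit, at 34.6 and 62.2 CPM (1.79, 1.09 to 3.06) and Pcna, the replication clamp, at 52.0 and 30.1 CPM (0.58, 0.34 to 0.98). The mitotic cyclin Ccnb1 stood at 53.5 and 19.4 CPM (0.36, 0.20 to 0.65), Ccnb2 at 86.6 and 45.6 CPM (0.53, 0.35 to 0.79) and Cdc20 at 70.9 and 34.0 CPM (0.48, 0.30 to 0.76). Top2a stood at 104 and 105 CPM (1.01, 0.74 to 1.39). Within the progenitor cluster, however, it had 28 and 3 UMIs (0.084, 0.016 to 0.27). In the progenitors outside that cluster it had 38 and 105 UMIs (1.21, 0.82 to 1.80). Cells with at least 5 UMIs of the G2 and M phase list were 28.1% of control and 31.8% of knockout progenitors. Outside the cycling cluster Ccnb1 had 4 and 1 UMIs and Cdc20 6 and 1, and Ccnb2 13 and 20 (0.99, 0.47 to 2.16). The values of these 3 genes over all progenitors thus came mostly from the cells of that cluster.

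Of 19 measured TrxG subunit genes, 4 were at least 1.5-fold higher and 1 lower, beside 10.3% and 12.2% of all genes. The median log2 ratio of the list was 0.24. Kdm6a, an X-linked demethylase, stood at 15.7 and 39.8 CPM (2.53, 1.24 to 5.66), Cxxc1, a CpG-binding subunit, at 18.9 and 39.8 CPM (2.11, 1.09 to 4.4) and Bod1l at 34.6 and 59.2 CPM (1.71, 1.03 to 2.92). Kdm6a escapes X inactivation, so the sex of the embryos and the genotype cannot be told apart for it, and its ratio was 1.92 in the ductal cluster. The methyltransferase genes Kmt2a (69.3 and 93.2 CPM, 1.35, 0.93 to 1.97) and Kmt2c (55.1 and 61.2 CPM, 1.11, 0.72 to 1.73) were within counting error.

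Of 19 measured adhesion and cytoskeleton genes, 3 were at least 1.5-fold lower and 1 was higher, beside 12.2% and 10.3% of all genes. A ratio below 1 was seen for 17, and the median log2 ratio was −0.25. The neuronal tubulin Tubb3 stood at 118 and 65.1 CPM (0.55, 0.39 to 0.78), Marcksl1, an actin regulator, at 735 and 473 CPM (0.64, 0.57 to 0.73), and Vim, vimentin, which mesenchymal cells hold in large amounts, at 209 and 330.2 CPM (1.58, 1.29 to 1.94). The 7 mesenchymal markers took 0.0219% of the UMIs of control and 0.0525% of knockout progenitors, with 0% to 0.598% and 0% to 0.955% per cell, and Pdgfra was at 0 in knockout. Their part in the Vim value was not tested.

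Of 19 early response genes, which rise during tissue dissociation, 1 was at least 1.5-fold higher and 2 lower, beside 10.3% and 12.2% of all genes. The median log2 ratio of the list was −0.03. Fos stood at 1661 and 1627 CPM (0.98, 0.91 to 1.06) and Jun at 1175 and 1136 CPM (0.97, 0.88 to 1.06), within counting error. Atf3, a stress-induced factor, stood at 358 and 502 CPM (1.40, 1.20 to 1.65), Ier3 at 120 and 188 CPM (1.57, 1.20 to 2.08) and Egr1 at 1022 and 842 CPM (0.82, 0.74 to 0.91).

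**Figure D4:**
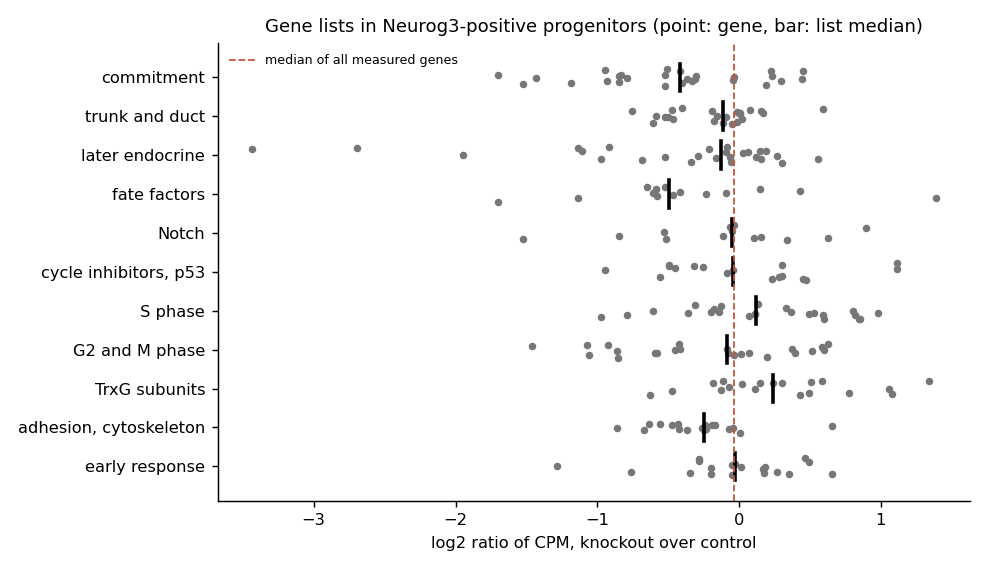
Log2 ratio of CPM, knockout over control, of each measured gene (grey point) in the 11 gene lists, with the list median as a black bar and the median of all measured genes, −0.04, as a dashed line. The commitment and fate factor medians, −0.42 and −0.49, lie furthest to the left, and the TrxG median, 0.24, furthest to the right.

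Among genes with at least 50 UMIs that the naming rule kept, the 12 furthest higher in knockout progenitors by the bound of their interval were Siva1, Dab1, Hist1h1e, Ddx27, Plk2, Brd7, Csrp2, Mt1, Fam3c, Lrif1, Gcsh and Syngr2. Siva1, a p53-responsive apoptosis gene, had 38 and 142 UMIs, 59.8 and 138 CPM, a ratio of 2.30 (1.6 to 3.39). It was seen in 28.1% of control and 52.3% of knockout progenitors. Most of its knockout UMIs came from progenitors outside the progenitor cluster, with 21 and 102 UMIs there (2.12, 1.32 to 3.57). Within the cluster it had 17 and 40 UMIs (1.84, 1.02 to 3.45). In the cycling cluster with ductal markers Siva1 stood at 206 and 283 CPM. Its ratio was 1.24 in the ductal cluster and 1.28 in mesenchymal barcodes. Dab1, the adaptor of reelin signalling, had 11 and 52 UMIs, a ratio of 2.92 (1.5 to 6.20), and stood near 1 in the ductal cluster (1.02). The difference was larger in progenitors than in duct for both, and whether the ratios differ between the cell types was not tested.

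Hist1h1e, a linker histone, stood at 20.5 and 56.3 CPM (2.75, 1.49 to 5.47), Ddx27, an RNA helicase, at 26.8 and 67.0 CPM (2.50, 1.46 to 4.54) and Brd7, a chromatin remodelling subunit, at 23.6 and 60.2 CPM (2.55, 1.43 to 4.82). Lrif1, a nuclear protein gene, stood at 15.7 and 43.7 CPM (2.77, 1.38 to 6.17). All 4 had few UMIs in control, 10 to 17, and wide intervals. Csrp2, a LIM protein gene, stood at 165 and 294 CPM (1.78, 1.42 to 2.24), but its ratio was 1.73 in mesenchymal barcodes. Mt1, a metallothionein, stood at 1598 and 2433 CPM (1.52, 1.41 to 1.64), and its log2 ratio was −0.24 in cells of 20 or more Neurog3 UMIs.

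The 12 genes furthest lower were Trf, Trp53i11, Pax4, Ass1, Msmo1, St6galnac2, Snrk, Ces1d, Selm, Isl1, Rasgrp3 and Chga. Trf, the iron carrier transferrin, had 187 and 87 UMIs, 295 and 84.5 CPM, a ratio of 0.29 (0.22 to 0.37). Trp53i11, a p53-induced membrane gene, had 80 and 38 UMIs, 126 and 36.9 CPM (0.29, 0.19 to 0.44). It was seen in 64.9% of control and 27.3% of knockout progenitors. Its ratio was 0.84 in the ductal cluster and 0.97 in mesenchymal barcodes. Snrk, a kinase gene, had 65 and 38 UMIs, 102 and 36.9 CPM (0.36, 0.23 to 0.55), with a ratio of 0.98 in the ductal cluster. The ratio of Trp53i11 was 0.55 (0.25 to 1.17) in the cycling cluster with ductal markers, 0.50 (0.22 to 1.07) in hormone-low endocrine barcodes and 0.60 in acinar barcodes, with few UMIs. That of Snrk was 0.82, 1.38 and 1.16 there. Trp53i11 thus had a ratio below 1 in each of these cell types, and Snrk in some of them.

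Others were lower in further cell types as well. Msmo1, a sterol synthesis enzyme, stood at 63.0 and 18.5 CPM (0.29, 0.16 to 0.52), and its ratio was 0.27 in the ductal cluster and 0.32 in mesenchymal barcodes. Ass1, of arginine synthesis, stood at 173 and 57.3 CPM (0.33, 0.24 to 0.46), with 0.47 in the ductal cluster. Trf had a ratio of 0.62 there and Rasgrp3, a Ras activator, 0.34. St6galnac2, a sialyltransferase gene, stood at 83.5 and 28.2 CPM (0.34, 0.21 to 0.54) with 0.60 in the ductal cluster, and Selm, a selenoprotein gene, at 266 and 116 CPM (0.43, 0.34 to 0.55) with 0.58. Ces1d, a carboxylesterase gene, stood at 183 and 74.8 CPM (0.41, 0.30 to 0.55) with 0.96. For Ces1d the ratio was 0.53 (0.43 to 0.66) in the cycling cluster with ductal markers, 0.13 (0.015 to 0.56) in hormone-low endocrine and 0.046 (0.014 to 0.13) in acinar barcodes. Each of these genes thus had a ratio below 1 in at least 1 other cell type.

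**Figure D5:**
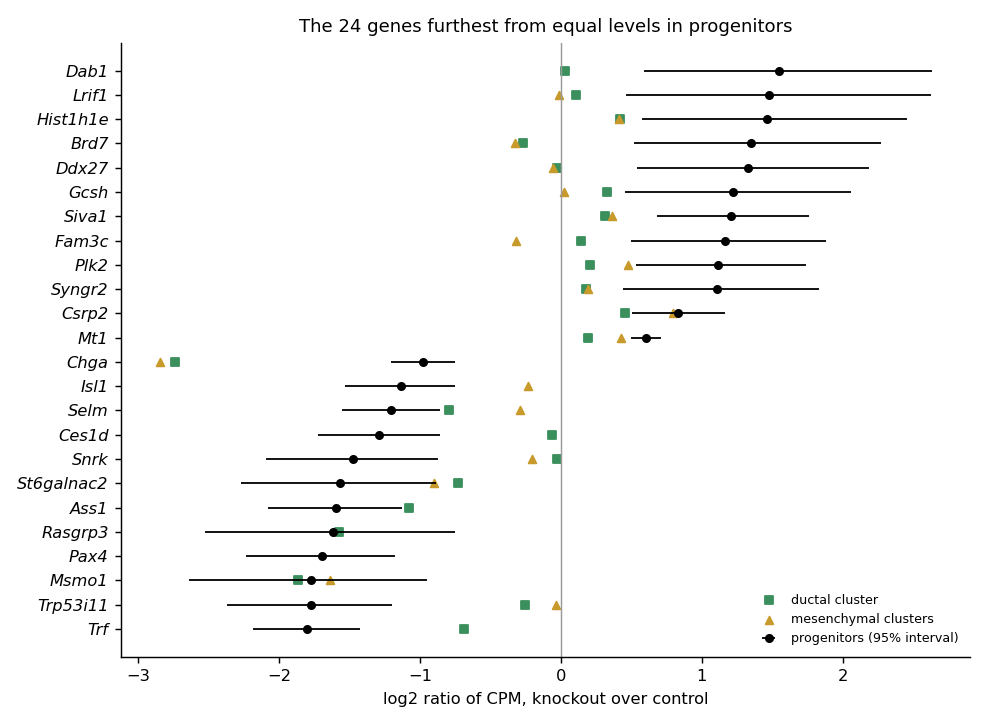
Log2 ratio of CPM, knockout over control, of the 24 genes in progenitors (black points with 95% intervals), in the ductal cluster (green squares) and in mesenchymal clusters (yellow triangles), the last 2 drawn only for genes with at least 20 UMIs there. Msmo1 is low in all 3, whereas Trp53i11 and Snrk are low in progenitors and near 0 in the others.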

How the data were processed

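Gene expression was measured in 2 droplet libraries of unsorted E18.5 pancreas, 1 per genotype. The deposited values are UMI counts per gene and barcode, made with Cell Ranger 3.0.0 per the file headers and mapped to mm10 (GRCm38) per the submitters' processing notes. The authors' deposited table of cluster marker genes gives p-values, of which only the order of genes was used here. Their processing notes name Seurat.

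From the counts, barcodes were kept with at least 500 genes and at most 10% mitochondrial UMIs. Barcodes were clustered with scanpy 1.11.5 (2000 variable genes, 30 principal components, 15 neighbours, Leiden resolution 1), and Scrublet was run in scanpy. Clusters were named from at least 3 markers among their leading 50 genes. The endocrine family is the clusters named by endocrine markers, with the progenitors. UMIs were summed over the progenitors of a library and scaled to CPM. Intervals are 95%: exact Poisson for a level, conditional binomial for a ratio, Clopper-Pearson for a share and Katz for a ratio of shares. PCR duplicates are removed by UMIs, but cells of a library are not replicates. With 1 library per group no test was made, and p-values are not given.

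Named genes were the 12 with the highest lower and the 12 with the lowest upper bound of the ratio among genes with at least 50 UMIs. Genes of the rule, haemoglobin, mitochondrial, ribosomal, Xist and Y-linked genes, unnamed gene models and genes held at over 5 times the level by another cluster were left out. All commitment genes could be named, and of each other list the 3 of most UMIs and the 3 furthest from 1. Against other cells, the 15 leading genes were named, or the 8 highest and 8 lowest. The 11 lists hold 272 gene symbols, all in the files. Members and lists were chosen with earlier results of these data known. Counts of 4379 genes were simulated with Poisson error around the summed levels of these cells, the error that the intervals assume. There 95.6% of intervals of unaltered genes held 1. No single cells were simulated, so this checks the calculation and says nothing of the spread between cells. In these counts 96.0% of genes altered 2-fold upwards passed 1.5-fold upwards. Of unaltered genes 6.04% passed 1.5-fold in either direction. Of the files' 27998 gene IDs, 27645 were in GENCODE M21, which gave positions. The processing alternatives were 18 planned and 5 added after the data were seen.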

Additional observations from a re-analysis of the deposited data

Results flagged for a closer look

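Sox4 and Mdk stood lower in knockout than in control progenitors but higher in the ductal cluster. The ratio of Sox4, knockout over control, was 0.758 in progenitors and 1.35 in ductal barcodes. The ratio of Mdk was 0.556 in progenitors and 1.39 in ductal barcodes. With 1 library per group the difference between the cell types was not tested. Mdk outside the progenitor cluster had 33 and 105 UMIs in the chosen cells, a ratio of 1.39 (0.931 to 2.12), and within it 394 and 280 UMIs, a ratio of 0.55 (0.47 to 0.65).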

How the results depend on the processing

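No paired analysis was possible because each group was 1 library. No progenitor was marked as a doublet, so leaving doublets out could alter only the share denominators, not the gene counts or list medians. The shares then stayed within their spread or within 1.5 times. Further settings were at most 5% mitochondrial UMIs, at least 1000 genes, hormone limits of 0.5% or 2%, and a limit of 1 Neurog3 UMI. These left the shares, the counts of genes and the list medians within their spread or within 1.5 times. So did scaling by the median ratio, and leaving out the control progenitor with most UMIs or the 4 in acinar clusters. With at least 3 Neurog3 UMIs the median of later endocrine genes was 0.090, and with at least 5 that of G2 and M phase genes −0.60. In the progenitor cluster alone, of 2548 genes with enough UMIs, 146 (5.73%) were at least 1.5-fold higher and 7.26% lower, and the S phase median was −0.36. With cells of equal weight 444 (10.7%) were higher and 371 (8.96%) lower, against 235 and 363. Outside the cycling cluster the G2 and M phase median was −0.73. Thinned to 3000 UMIs per cell, 87 of 1055 (8.25%) were higher and 91 (8.63%) lower, with medians of −0.22 for S phase and 0.65 for G2 and M phase. With at least 20 UMIs per gene the numbers were 750 (10.3%) and 895 (12.2%), with at least 100 UMIs 73 (3.40%) and 125 (5.83%), and past 2-fold 70 (1.69%) and 63 (1.52%). With 20 or more Neurog3 UMIs the share ratios were 0.69 of kept, 0.61 of epithelial and 1.35 of endocrine family barcodes. The kept and epithelial denominators held unequal numbers of acinar barcodes. In these cells 92 genes (6.05%) were higher and 106 (6.97%) lower. Medians were 0.38 for later endocrine, 0.68 for G2 and M phase and −0.15 for adhesion genes. There the log2 ratios of Mt1 (−0.24) and Tox3 (0.063) had the other sign. Fewer cells and UMIs enter these settings, and the cause was not tested otherwise. So the S phase and G2 and M phase directions, and the higher share of progenitors among kept barcodes, hold only under some settings. The commitment median, from −0.53 to −0.21, stayed below that of all genes in every setting run. All settings drew on the same libraries, and the list was drawn up with earlier results of these cells known. Their agreement is thus not independent evidence. Counting error limits genes with few UMIs, and no value covers the spread between embryos.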
